A study of Mus musculus with 12 samples.

Results

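Cultured mouse trigeminal ganglion (TG) neurons that received miR-21 (3 arrays) were compared with cultures that received scramble miRNAs (3 arrays), over all 19572 probes paired with 1 gene symbol. These 6 of the 12 arrays of the series were taken by their titles. The other 6 belong to miR-34a and miR-324 (3 arrays each) and entered the fit to estimate the spread. All cultures were primary TG neurons plated on coverslips coated with laminin and transfected with a miRNA, so the scramble cultures carried the transfection too. The labels state neither the arm of miR-21 nor its dose, the time after transfection, or the age and strain of the mice. Nothing in them states whether replicate arrays stand for separate cultures or mice, so each p-value reflects only how these samples varied, and that variation may be technical. The title of the series gives head and neck cancer and neural reprogramming as its subject.

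MicroRNAs are short RNAs that guide Argonaute proteins to messenger RNAs, mostly through the seed at their 5′ end, and lower the level or the translation of those messages. miR-21 is one of the miRNAs most often raised in tumours, among them tumours of the head and neck, and is also raised in injured sensory ganglia. A trigeminal culture holds sensory neurons together with Schwann cells, satellite glia, fibroblasts and vessel or immune cells carried over from the ganglion. The mature arms of the mouse gene, from RefSeq on GRCm38.p6 (chromosome 11, minus strand, bases 86584120 to 86584141 for the 5p arm and 86584082 to 86584103 for the 3p arm), are shown because the seed sets which messages an arm can bind. Capitals mark the seed, bases 2 to 8.
mmu-miR-21a-5p: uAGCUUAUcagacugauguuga
mmu-miR-21a-3p: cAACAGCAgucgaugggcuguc
The seed of the 5p arm occurs in 2 mature mouse miRNAs of the table, miR-21a-5p and miR-21c, and that of the 3p arm in 1.

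The labels of scramble 1 and 2 end in 4-10 and that of scramble 3 in 3-11, while the miR-21 labels have no such suffix, so within these 6 arrays suffix and group cannot be told apart. Only the miR-34a and miR-324 groups hold arrays both with and without a suffix. A fit with the suffix as a fixed block therefore takes the step from no suffix to a suffix from those groups alone. It also assumes that the suffix acts alike in every group, which was not tested. Correlation across genes, which are not independent replicates, was 0.992 between scramble 1 and 2, 0.969 and 0.970 between each of them and scramble 3, and 0.984 to 0.991 among the miR-21 arrays. Genes of the Y chromosome and genes of other cell types moved with the arrays. All 3 measured Y-linked genes were wholly above scramble in the miR-21 arrays, though 0 passed. Within these 6 arrays the sex of the cells and miR-21 therefore cannot be told apart. Uty, a gene of the Y chromosome, stood at 9.16, 7.78 and 8.87 in miR-21 1, 2 and 3, against 3.85, 5.01 and 4.61 in scramble 1, 2 and 3; it was 10.35, 8.46 and 7.44 in miR-34a 3, miR-324 1 and miR-324 4, the other arrays without a suffix, and 4.24 to 5.17 in the remaining 3. Cga and Gh, hormone genes of the pituitary, stood at 11.85 and 10.17 in scramble 3 and at 4.24 or lower in the other 5 arrays compared. Fcgr3, an antibody receptor of macrophages, stood at 5.56, 6.00 and 5.86 in miR-21 1, 2 and 3, against 10.98, 10.68 and 6.17 in scramble 1, 2 and 3, so of these 6 arrays it was high in scramble 1 and 2. Neuronal genes were well above the floor in all 6 arrays (median of 25 genes 10.83 to 11.27 in miR-21 and 11.80 to 13.28 in scramble), where 1414 probes for olfactory and vomeronasal receptors had medians of 3.51 to 4.12. In such mixed cultures fewer cells of a type and less RNA per cell cannot be told apart.

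After miR-21, 134 genes were higher and 70 lower than after scramble, 204 of 19572 probes in all (1.04%; 0.685% higher and 0.358% lower), at a Benjamini-Hochberg adjusted p under 0.05 in limma. At an unadjusted p under 0.05 the share was 16.6% (10.6% higher and 6.08% lower), against which counts of list members at that threshold are to be read. Levels are log2 signals, and differences are miR-21 minus scramble on the log2 scale with the standard error (±) of the fit over 12 arrays. In each of the 204 the 3 miR-21 arrays lay wholly above or wholly below the 3 scramble arrays, as they did in 25.6% of all probes (16.9% above and 8.75% below). The median difference was 1.67 among the genes that were higher and −2.07 among those that were lower, against 0.13 over all probes. The genes that were lower had a median level of 7.00 in miR-21 arrays against 9.79 in scramble arrays, and those that were higher 10.79 against 8.90. In the 6 fits that each left out 1 of these arrays, 92 of the 204 passed in none and 6 passed in all. Those 6 were Sucnr1, which was higher, and Ly6c1, Oasl2, Ifitm3, Lgals9 and Irf9, which were lower. Ly6c1, a surface protein of vessel and myeloid cells, had the largest fall, at 5.05, 5.45 and 7.04 in miR-21 1, 2 and 3, against 11.60, 10.77 and 9.52 in scramble 1, 2 and 3 (difference −4.78 ± 0.58, adjusted p = 0.00969).

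**Figure D1:**
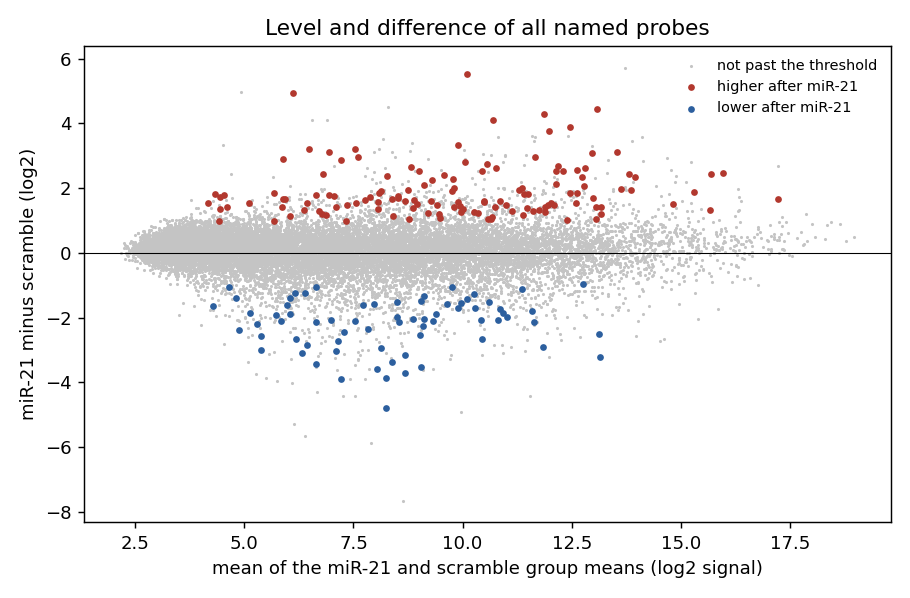
Difference between the miR-21 and scramble means (vertical axis, log2) against the mean of both groups (horizontal axis, log2 signal) for all named probes; coloured points passed the threshold. The 134 genes higher after miR-21 and the 70 lower lie over a wide range of signal, mostly in its brighter part. Of the 204, 181 also passed in the fit of probes brighter than the median probe. Large differences that did not pass are also seen.

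The 204 genes had the same sign against each scramble array, since their groups did not overlap. Among the genes that were higher, the median difference was 1.63, 1.46 and 1.97 against scramble 1, 2 and 3, and 113 of 134 exceeded 1 log2 unit against each. Among those that were lower it was −1.78, −1.99 and −2.06, and 64 of 70 exceeded 1 unit against each. In 47 of the 204 genes scramble 3 was over 1 unit away from the mean of the other scramble arrays, as it was in 12.4% of all probes. In 26 of the genes that were higher scramble 3 was the lower one by that margin, and in 0 of them the higher one. In the genes that were lower it was above scramble 1 and 2 in 16 and below them in 5. Pmp2, a fatty acid carrier in Schwann cells, was the gene furthest from equal: its difference was 3.95 against scramble 1 and 2 and 8.62 against scramble 3.

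**Figure D2:**
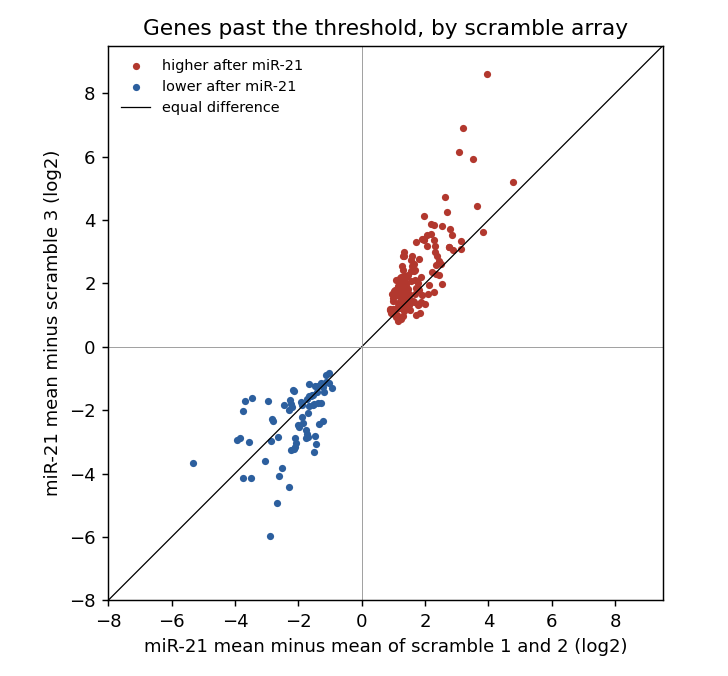
Difference of the miR-21 mean from scramble 3 (vertical axis, log2) against its difference from the mean of scramble 1 and 2 (horizontal axis, log2) for the 204 genes past the threshold; the line marks equal differences. All points keep their sign on both axes, and the points far above the line on the right are genes with low values in scramble 3.

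Genes that interferon induces were among those that fell: 14 of the 70 belonged to 4 lists of interferon and antiviral genes. Interferons act through receptors and Janus kinases, and the signal reaches the interferon-stimulated response element (ISRE) in the promoters of antiviral genes. Of 22 genes of the receptor and transcription factor arm 2 fell, of 67 antiviral effectors 9, of 31 sensors of nucleic acids 2 and of 12 guanylate-binding and immunity-related GTPases 1, while over all probes 0.358% fell. No gene of the 4 lists rose, and at an unadjusted p under 0.05 1 of them, an antiviral effector, was higher. The median difference of the effectors was −0.98, or −0.50, −0.73 and −1.44 against scramble 1, 2 and 3, and 35 of 67 lay wholly below scramble, against 8.75% of all probes. With the suffix as a random block 1 of the 2, 6 of the 9, 0 of the 2 and 0 of the 1 still passed. As a fixed block 4 of the 22, 22 of the 67, 7 of the 31 and 8 of the 12 fell, and 0 rose. The medians of the 4 lists were then −0.35, −1.30, −0.79 and −2.61. The GTPases differed most by array, with medians of −0.57, −0.98 and −3.17 against scramble 1, 2 and 3.

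Ifitm3, a membrane protein that blocks the entry of viruses, stood at 11.15, 11.47 and 11.97 in miR-21 1, 2 and 3, against 14.42, 14.73 and 15.14 in scramble 1, 2 and 3 (difference −3.23 ± 0.32, adjusted p = 0.00346). The highest miR-21 array was far below the lowest scramble array. Ifitm1, of the same family, stood at 5.96, 4.68 and 6.09 in miR-21 1, 2 and 3, against 9.52, 8.99 and 7.29 in scramble 1, 2 and 3 (difference −3.02 ± 0.65, adjusted p = 0.0495). Here scramble 3 was the lowest scramble array and nearest to miR-21. Lgals9, the secreted lectin galectin-9, stood at 10.25, 10.23 and 10.70 in miR-21 1, 2 and 3, against 13.01, 13.52 and 13.36 in scramble 1, 2 and 3 (difference −2.90 ± 0.35, adjusted p = 0.00969). Both groups were tight and did not overlap. Cd274, which encodes the immune checkpoint ligand PD-L1, stood at 5.54, 4.24 and 4.56 in miR-21 1, 2 and 3, against 7.31, 7.49 and 8.85 in scramble 1, 2 and 3 (difference −3.10 ± 0.43, adjusted p = 0.0109). The miR-21 arrays were low, and scramble 3 was the highest. Ube2l6, the enzyme that conjugates the ubiquitin-like ISG15, stood at 6.39, 6.38 and 7.19 in miR-21 1, 2 and 3, against 8.43, 9.06 and 9.52 in scramble 1, 2 and 3 (difference −2.35 ± 0.34, adjusted p = 0.014). Trim30a, a ubiquitin ligase family member induced by interferon, stood at 3.99, 3.96 and 3.70 in miR-21 1, 2 and 3, against 5.86, 6.47 and 8.32 in scramble 1, 2 and 3 (difference −3.0 ± 0.57, adjusted p = 0.0313). The 3 miR-21 values of Trim30a were at the floor, so its difference is understated. Sting1, the adaptor of the cytosolic DNA pathway, stood at 6.37, 4.96 and 7.56 in miR-21 1, 2 and 3, against 9.69, 10.38 and 10.45 in scramble 1, 2 and 3 (difference −3.88 ± 0.74, adjusted p = 0.0309). Lgals3bp, a secreted galectin-binding protein, stood at 7.44, 6.50 and 7.91 in miR-21 1, 2 and 3, against 11.04, 11.23 and 10.17 in scramble 1, 2 and 3 (difference −3.53 ± 0.53, adjusted p = 0.0145). Xaf1, a pro-apoptotic protein induced by interferon, stood at 6.17, 6.47 and 5.50 in miR-21 1, 2 and 3, against 7.71, 8.58 and 9.21 in scramble 1, 2 and 3 (difference −2.45 ± 0.40, adjusted p = 0.0197). The groups did not overlap in these 3 genes, and the miR-21 arrays were spread widest in Sting1. Igtp, an immunity-related GTPase, differed by −2.12 ± 0.42 (adjusted p = 0.0369), and Slfn2, of the Schlafen family, by −1.62 ± 0.30 (adjusted p = 0.028).

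When each of the 6 arrays was left out in turn, Ifitm3 and Lgals9 passed in all 6 (adjusted p = 0.00714 to 0.046). Cd274 passed only in the fits without miR-21 1 or scramble 1, 2 or 3 (adjusted p = 0.0239 to 0.0583). Ube2l6 passed only in the fits without miR-21 3 or scramble 1, 2 or 3 (adjusted p = 0.0307 to 0.0738). Ifitm1 passed only in the fits without scramble 3 (adjusted p = 0.0354 to 0.179). Trim30a and Xaf1 passed only in the fits without scramble 1 (adjusted p = 0.0315 to 0.125). Igtp passed only in the fits without scramble 1 or 3 (adjusted p = 0.0482 to 0.155). Slfn2 and Sting1 passed in no reduced fit (adjusted p = 0.0512 to 0.125). Lgals3bp passed only in the fits without miR-21 3 or scramble 2 or 3 (adjusted p = 0.0245 to 0.0707). With the suffix as a random block Ifitm3, Lgals9, Cd274, Trim30a, Lgals3bp and Xaf1 still passed (adjusted p = 0.0147 to 0.0302) and Ube2l6, Ifitm1, Igtp, Slfn2 and Sting1 did not (adjusted p = 0.052 to 0.145). The arrays of other miRNAs that lack a suffix did not share the low levels of most of these genes: in miR-34a 3, miR-324 1 and miR-324 4 Ifitm3 stood at 14.23, 15.88 and 15.03, Lgals9 at 12.22, 13.34 and 12.63, Cd274 at 6.59, 8.06 and 7.45 and Trim30a at 7.45, 8.18 and 7.14. Ifitm1, at 6.37, 6.48 and 7.35, was lower in these 3 arrays than in scramble 1 and 2. Sting1 stood at 7.29, 8.31 and 9.63 there, below every scramble array, and miR-34a 3 lay within the range of the miR-21 arrays. Irf7, the interferon-induced amplifier of the response, and Usp18, its feedback inhibitor, did not pass. Irf7 stood at 3.07, 3.53 and 3.56 in miR-21 1, 2 and 3, against 5.38, 6.48 and 8.42 in scramble 1, 2 and 3 (adjusted p = 0.096) and Usp18 at 4.94, 3.92 and 4.40 in miR-21 1, 2 and 3, against 6.37, 6.91 and 9.82 in scramble 1, 2 and 3 (adjusted p = 0.069); the groups did not overlap in either gene, and scramble 3 was highest in both. Antigen presentation gave no calls: 0 of 36 class I genes and 0 of 11 class II genes passed in limma, with median differences of −0.21 and −0.25. At an unadjusted p under 0.05 1 and 0 of them were higher and 7 and 1 lower.

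Promoters of these genes were searched for the core letters of the ISRE (TTTC, any 2 bases, TTTC) on both strands of the 300 bases from 250 before to 50 after the start in RefSeq (GRCm38.p6). They occurred in 618 of 15691 promoters of measured genes (3.94%), in 46 of 104 promoters of the 4 interferon lists (44.2%), in 7 of 13 of the list members that fell (53.8%) and in 39 of 91 that did not pass (42.9%). Of all genes that fell, 9 of 60 held them (15%), and of all that rose 4 of 103 (3.88%). The 9 were Ifitm3, Lgals9, Stat2, Ifi207, Ifit1, Igtp and Trim30a and, outside the lists, Gna13 and Clec2d; Ifitm3, Lgals9 and Ifit1 held 2 matches each. Stretches of 5 of the list members follow with the match in capitals, chosen because every match in the window shown lies before the start. Gna13 and Clec2d, outside the lists, also hold their match before the start and are not shown. The stretches are Ifit1 at chr19:34640755-34640843 (plus strand), Stat2 at chr10:128270248-128270315 (plus strand), Igtp at chr11:58199492-58199561 (plus strand), Ifi207 at chr1:173741811-173741880 (minus strand) and Trim30a at chr7:104465190-104465259 (minus strand).
Ifit1: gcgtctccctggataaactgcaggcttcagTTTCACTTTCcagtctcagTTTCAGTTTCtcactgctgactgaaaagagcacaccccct
Stat2: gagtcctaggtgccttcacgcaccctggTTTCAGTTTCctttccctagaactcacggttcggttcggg
Igtp: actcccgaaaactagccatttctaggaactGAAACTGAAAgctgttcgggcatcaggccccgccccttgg
Ifi207: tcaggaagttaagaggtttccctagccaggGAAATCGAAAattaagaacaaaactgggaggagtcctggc
Trim30a: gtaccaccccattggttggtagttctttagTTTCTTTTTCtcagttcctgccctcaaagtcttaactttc
In capitals the ISRE letters read as TTTC or, on the other strand, as GAAA pairs, with a 2-base gap. A match is a description of the letters and was not tested as a binding site.

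Of 29 genes of NF-kB feedback and inflammatory effectors 1 fell and 0 rose, against 0.358% and 0.685% of all probes. Wholly below scramble lay 10 and wholly above 4, against 8.75% and 16.9% of all probes. At an unadjusted p under 0.05, 1 of the 29 was higher and 8 lower. Of 38 chemokines 0 passed in limma, with 1 higher and 7 lower at that threshold. Over all probes 10.6% were higher and 6.08% lower there. The gene that fell was Selp, the adhesion molecule P-selectin, at 7.42, 6.31 and 7.53 in miR-21 1, 2 and 3, against 10.70, 10.95 and 9.12 in scramble 1, 2 and 3 (difference −3.17 ± 0.52, adjusted p = 0.0197). Outside these lists some single genes of inflammatory signalling, chosen after their values were seen apart from Ier3, were lower. Pde4b, a phosphodiesterase that degrades cyclic AMP, stood at 9.83, 9.66 and 10.56 in miR-21 1, 2 and 3, against 11.29, 11.65 and 13.08 in scramble 1, 2 and 3 (difference −1.99 ± 0.41, adjusted p = 0.0436). Irak3, a brake on Toll-like receptor signalling, stood at 8.19, 7.20 and 8.16 in miR-21 1, 2 and 3, against 9.66, 9.58 and 10.47 in scramble 1, 2 and 3 (difference −2.05 ± 0.37, adjusted p = 0.0251). The groups did not overlap in either, and scramble 3 was highest in both. Pim1, a kinase induced by cytokines, Prdm1, a transcriptional repressor, and Nfkbid, an inhibitor-like regulator of NF-kB, differed by −1.71, −1.93 and −1.64 (adjusted p = 0.0293, 0.0261 and 0.0203). Ier3, an early response gene that NF-kB induces, stood at 11.82, 11.65 and 12.17 in miR-21 1, 2 and 3, against 13.66, 14.38 and 15.11 in scramble 1, 2 and 3 (difference −2.50 ± 0.44, adjusted p = 0.0251). On the NF-kB list, Il6, the cytokine interleukin-6, stood at 4.93, 5.18 and 4.79 in miR-21 1, 2 and 3, against 10.05, 9.83 and 12.61 in scramble 1, 2 and 3 but did not pass in the 12 arrays (adjusted p = 0.0716) and passed with the 6 arrays alone (adjusted p = 0.00228). Lcn2 of that list, a secreted iron-sequestering protein, stood at 4.36, 5.25 and 4.85 in miR-21 1, 2 and 3, against 15.05, 12.91 and 9.46 in scramble 1, 2 and 3, and missed the threshold (adjusted p = 0.0501). Its 3 scramble arrays were spread over more than 5 log2 units. The 2 chemokines with the smallest p were Cxcl14 (2.80 ± 0.72, adjusted p = 0.0849) and Cxcl10 (−1.77 ± 0.48, adjusted p = 0.0966).

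Among the fits without 1 array, Pde4b, Pim1 and Ier3 passed only in the fits without scramble 1 (adjusted p = 0.0392 to 0.171). Irak3 passed in no reduced fit (adjusted p = 0.051 to 0.0931). Prdm1 passed only in the fits without scramble 1 or 3 (adjusted p = 0.0392 to 0.125). Nfkbid passed only in the fits without miR-21 1 or scramble 1 (adjusted p = 0.0339 to 0.0823). Selp passed only in the fits without scramble 3 (adjusted p = 0.0125 to 0.0796). As a random block the suffix changed these calls: Pde4b, Irak3, Pim1, Prdm1, Nfkbid, Selp, Ier3 and Clec4n did not pass (adjusted p = 0.0594 to 0.144). Macrophage markers were high in scramble 1 and 2 among these 6 arrays. Their median level was 5.44, 5.24 and 5.74 in miR-21 1, 2 and 3, against 7.90, 7.85 and 5.13 in scramble 1, 2 and 3; 0 of 17 passed in limma and 8 were lower at an unadjusted p under 0.05, as 6.08% of all probes were. Pde4b, Irak3 and Il6 were highest in scramble 3, where the median of these markers was lowest. In Selp and Clec4n scramble 3 was the lowest of the scramble arrays. In miR-34a 3 and miR-324 1, 2 and 4 the marker medians were 4.81 to 5.17. Selp stood at 10.33 to 11.95 in these arrays and Clec4n at 5.66 to 6.06. The part of macrophages in any of these results was not tested. With the suffix as a fixed block the median difference of the markers was 0.18, against −1.49 without it. Clec4n, a lectin of macrophages and dendritic cells, stood at 5.09, 5.31 and 4.62 in miR-21 1, 2 and 3, against 8.98, 7.98 and 6.64 in scramble 1, 2 and 3 (difference −2.86 ± 0.61, adjusted p = 0.0495), and passed without scramble 3 but in no other reduced fit (adjusted p = 0.0354 to 0.164).

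**Figure D3:**
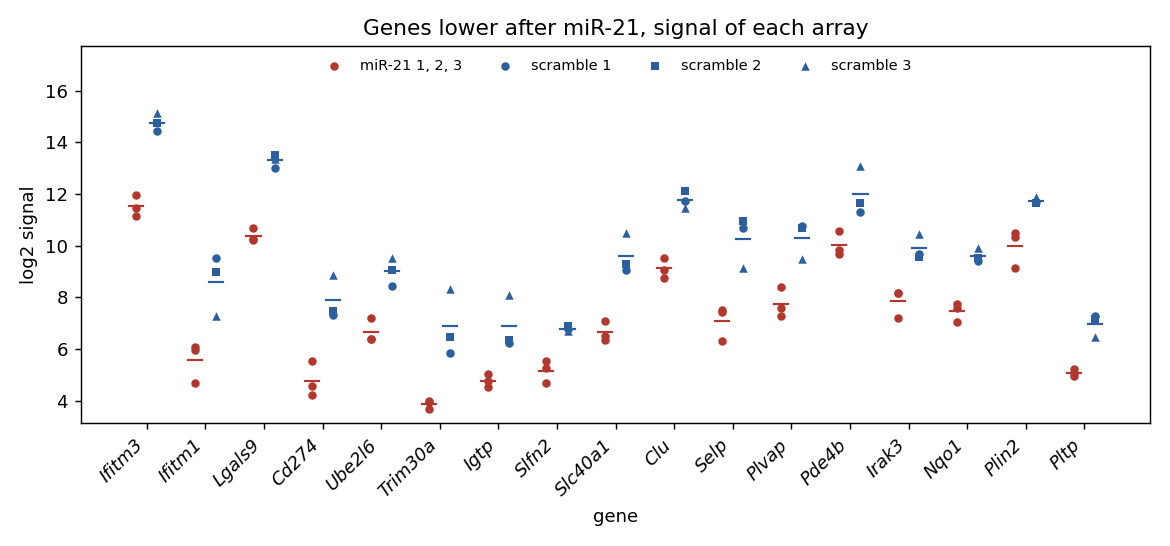
Log2 signal (vertical axis) of each array for 17 genes that were lower after miR-21; red points are miR-21 1 to 3 and blue symbols scramble 1, 2 and 3, with a line at each group mean. In all 17 the miR-21 points lie below the scramble points. Scramble 3 is the highest scramble array in Ifitm3, Cd274, Ube2l6, Trim30a, Igtp, Slc40a1, Pde4b, Irak3, Nqo1 and Plin2. It is the lowest scramble array in Ifitm1, Slfn2, Clu, Selp, Plvap and Pltp, and lies between the others in Lgals9.

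Single genes of vessels, iron export, detoxification and other roles fell too. Plvap, the protein of the diaphragms of endothelial fenestrae, stood at 7.61, 7.27 and 8.39 in miR-21 1, 2 and 3, against 10.75, 10.68 and 9.47 in scramble 1, 2 and 3 (difference −2.54 ± 0.38, adjusted p = 0.0151). It was the 1 of 19 endothelial markers that fell, and 0 rose. Their median difference was 0.24, −0.14 and −1.94 against scramble 1, 2 and 3, so the list stood well above miR-21 in scramble 3. With the suffix as a fixed block 16 of the 19 fell and 0 rose, with a median of −3.02. As a random block 1 fell, with a median of −1.82. The list's median level was 7.61, 7.64 and 8.20 in miR-21 1, 2 and 3. It was 11.02, 11.88 and 10.88 in miR-34a 3, miR-324 1 and miR-324 4. Slc40a1, the iron exporter ferroportin, stood at 6.37, 7.07 and 6.52 in miR-21 1, 2 and 3, against 9.05, 9.29 and 10.48 in scramble 1, 2 and 3 (difference −2.95 ± 0.47, adjusted p = 0.0172). Clu, the extracellular chaperone clusterin, stood at 9.07, 8.77 and 9.53 in miR-21 1, 2 and 3, against 11.74, 12.11 and 11.46 in scramble 1, 2 and 3 (difference −2.65 ± 0.36, adjusted p = 0.00969) and was the 1 of 25 complement genes that fell. In both genes the groups were far apart. Nqo1, a quinone reductase induced by the factor NRF2, stood at 7.74, 7.05 and 7.59 in miR-21 1, 2 and 3, against 9.39, 9.52 and 9.93 in scramble 1, 2 and 3 (difference −2.15 ± 0.38, adjusted p = 0.0248), and the other 22 NRF2 genes and metallothioneins did not pass. Dio2, the enzyme that activates thyroid hormone, differed by −2.65 ± 0.54 (adjusted p = 0.042), and Ereg, an epidermal growth factor receptor ligand, by −1.51 ± 0.27 (adjusted p = 0.0246). Pcp4, a small calmodulin-binding protein of neurons, stood at 6.75, 6.57 and 6.78 in miR-21 1, 2 and 3, against 10.10, 10.42 and 9.72 in scramble 1, 2 and 3 (difference −3.38 ± 0.64, adjusted p = 0.0295). Tmem88b, a membrane protein, differed by −2.58 ± 0.54 (adjusted p = 0.0458). In miR-34a 3, miR-324 1 and miR-324 4 Dio2 stood at 5.99, 4.97 and 6.88, below every scramble array (7.89, 7.47 and 7.14), and miR-324 1 was nearest to the miR-21 arrays (4.95, 4.85 and 4.75). Pcp4 stood at 6.89, 6.76 and 8.46 there, also below every scramble array, with miR-34a 3 and miR-324 1 beside the miR-21 arrays. In these 3 arrays Slc40a1 stood at 10.64, 10.32 and 10.11 and Clu at 10.58, 11.19 and 11.46, above every miR-21 array. With each array removed once, Slc40a1 passed only in the fits without scramble 1, 2 or 3 (adjusted p = 0.0392 to 0.089). Clu passed only in the fits without miR-21 3 or scramble 1, 2 or 3 (adjusted p = 0.0221 to 0.061). Plvap passed only in the fits without miR-21 3 or scramble 2 or 3 (adjusted p = 0.0103 to 0.0825). Nqo1, Dio2, Pcp4 and Tmem88b passed in no reduced fit (adjusted p = 0.0625 to 0.174). Ereg passed only in the fits without scramble 2 (adjusted p = 0.05 to 0.118). Under the random suffix block Slc40a1, Clu and Plvap still passed (adjusted p = 0.0203 to 0.031) and Nqo1, Dio2, Ereg, Pcp4 and Tmem88b did not (adjusted p = 0.052 to 0.168).

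Extracellular matrix genes were among those that rose. Laminins, nidogens, perlecan and agrin build the basement membrane that Schwann cells lay down around axons, and small leucine-rich proteoglycans and fibulins space and bind collagen fibrils in the nerve's connective tissue. Of 25 laminin and basement membrane genes 5 rose, of 24 elastic fibre and leucine-rich proteoglycan genes 5 rose, and of 42 collagen chains 2 rose; 0 fell in any of the 3 lists, and over all probes 0.685% rose. Wholly above scramble were 15 of 25, 13 of 24 and 20 of 42, against 16.9% of all probes. The median difference of the basement membrane genes was 1.01, 0.74 and 1.19 against scramble 1, 2 and 3. With the suffix as a random block 1 of the 5 basement membrane genes, 2 of the 5 elastic fibre and proteoglycan genes and both collagens still passed. Of 24 enzymes of collagen folding and crosslinking 1 rose and 0 fell, with 14 wholly above scramble and a median difference of 0.92. Of 21 matricellular proteins 1 rose and 0 fell.

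Col1a2, a chain of type I collagen, stood at 15.45, 15.10 and 15.38 in miR-21 1, 2 and 3, against 12.56, 11.63 and 8.40 in scramble 1, 2 and 3 (difference 4.45 ± 0.83, adjusted p = 0.0291). Col5a2, a chain of the collagen that starts fibrils, stood at 11.84, 10.94 and 11.92 in miR-21 1, 2 and 3, against 8.95, 8.92 and 6.85 in scramble 1, 2 and 3 (difference 3.33 ± 0.51, adjusted p = 0.016). Scramble 3 was the lowest array in both chains. Lox, the lysyl oxidase that crosslinks collagen, stood at 14.28, 13.42 and 14.32 in miR-21 1, 2 and 3, against 10.83, 10.19 and 8.09 in scramble 1, 2 and 3 (difference 4.30 ± 0.87, adjusted p = 0.0414). Tnn, the matricellular protein tenascin-N, stood at 9.81, 5.33 and 10.56 in miR-21 1, 2 and 3, against 4.19, 3.37 and 3.35 in scramble 1, 2 and 3 (difference 4.93 ± 1.01, adjusted p = 0.0421). In Tnn miR-21 2 was far below the other miR-21 arrays, and the scramble arrays were at the floor, so its difference is understated. Hspg2, the proteoglycan perlecan, stood at 14.10, 13.60 and 13.86 in miR-21 1, 2 and 3, against 9.93, 10.14 and 10.23 in scramble 1, 2 and 3 (difference 3.75 ± 0.59, adjusted p = 0.0172), with the scramble arrays close together. In the fits that each dropped 1 array, Col1a2 passed only in the fits without scramble 1 or 3 (adjusted p = 0.0303 to 0.125). Col5a2 passed only in the fits without miR-21 2 or scramble 1, 2 or 3 (adjusted p = 0.0221 to 0.0864). Lox passed in no reduced fit (adjusted p = 0.0642 to 0.16). Tnn passed only in the fits without miR-21 2 (adjusted p = 0.000566 to 0.172). Hspg2 passed only in the fits without scramble 2 or 3 (adjusted p = 0.0466 to 0.0879).

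Lama2, the heavy chain of the laminin of Schwann cell and muscle basement membranes, stood at 11.37, 11.61 and 11.40 in miR-21 1, 2 and 3, against 9.19, 9.15 and 7.61 in scramble 1, 2 and 3 (difference 2.81 ± 0.41, adjusted p = 0.014). Lamc1, the light chain shared by most laminins, stood at 13.52, 13.33 and 13.35 in miR-21 1, 2 and 3, against 11.49, 11.73 and 11.40 in scramble 1, 2 and 3 (difference 1.86 ± 0.29, adjusted p = 0.017). Lamb1, the beta chain that pairs with both, stood at 12.52, 12.36 and 12.68 in miR-21 1, 2 and 3, against 11.38, 11.54 and 10.83 in scramble 1, 2 and 3 (difference 1.27 ± 0.24, adjusted p = 0.0293). All miR-21 arrays exceeded all scramble arrays in the 3 chains, and scramble 3 was lowest in each. Agrn, the heparan sulphate proteoglycan agrin, stood at 9.33, 9.35 and 9.72 in miR-21 1, 2 and 3, against 7.24, 6.81 and 7.20 in scramble 1, 2 and 3 (difference 2.38 ± 0.48, adjusted p = 0.0397). Dystrophin and utrophin, which tie the laminin receptor dystroglycan to actin, rose too. Dmd stood at 10.86, 10.23 and 10.90 in miR-21 1, 2 and 3, against 9.37, 9.49 and 8.46 in scramble 1, 2 and 3 (difference 1.56 ± 0.31, adjusted p = 0.0399), and Utrn at 13.40, 13.59 and 13.75 in miR-21 1, 2 and 3, against 10.91, 11.48 and 10.72 in scramble 1, 2 and 3 (difference 2.54 ± 0.53, adjusted p = 0.0457). Itgb8, an integrin subunit that activates latent TGF-beta, differed by 2.68 ± 0.57 (adjusted p = 0.0493) and was the 1 of 26 integrins that rose.

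Among fibril-associated proteins, Ltbp2, a fibrillin-binding protein of elastic fibres, stood at 9.52, 9.20 and 8.72 in miR-21 1, 2 and 3, against 6.42, 6.50 and 4.89 in scramble 1, 2 and 3 (difference 3.21 ± 0.48, adjusted p = 0.0145). Fmod, the proteoglycan fibromodulin, stood at 6.92, 7.11 and 7.94 in miR-21 1, 2 and 3, against 4.56, 4.54 and 4.18 in scramble 1, 2 and 3 (difference 2.90 ± 0.46, adjusted p = 0.0172). Its scramble values were close to the floor, so the difference is a low estimate. Prelp, which anchors basement membranes to collagen, stood at 8.52, 9.84 and 8.91 in miR-21 1, 2 and 3, against 5.81, 6.58 and 6.03 in scramble 1, 2 and 3 (difference 2.95 ± 0.48, adjusted p = 0.0193). Ogn, the proteoglycan osteoglycin, and Efemp1, a fibulin, differed by 2.01 ± 0.38 and 2.27 ± 0.32 (adjusted p = 0.0312 and 0.0125). Epyc, another leucine-rich proteoglycan that was on no list, went the other way: it stood at 2.96, 3.52 and 4.56 in miR-21 1, 2 and 3, against 5.88, 5.61 and 6.71 in scramble 1, 2 and 3 (difference −2.39 ± 0.43, adjusted p = 0.028). Of 44 matrix proteases and inhibitors 2 rose and 1 fell. Those that rose were Adamts7, which cleaves cartilage matrix protein, at 8.48, 8.79 and 8.95 in miR-21 1, 2 and 3, against 6.81, 6.94 and 7.32 in scramble 1, 2 and 3 (difference 1.72 ± 0.23, adjusted p = 0.0105), and Adamts20 (1.54 ± 0.31, adjusted p = 0.0421). The gene that fell was Mmp3, the protease stromelysin, at 4.81, 5.02 and 5.93 in miR-21 1, 2 and 3, against 8.34, 7.94 and 11.21 in scramble 1, 2 and 3 (difference −3.91 ± 0.73, adjusted p = 0.0293). Mgp, an inhibitor of calcification, rose as the 1 of 18 perineurial and meningeal markers that passed (1.48 ± 0.27, adjusted p = 0.0284).

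With 1 array fewer, Lama2 passed only in the fits without scramble 1, 2 or 3 (adjusted p = 0.0221 to 0.0664). Lamc1 and Mmp3 passed only in the fits without scramble 2 or 3 (adjusted p = 0.0442 to 0.132). Lamb1, Fmod, Prelp and Ogn passed only in the fits without scramble 2 (adjusted p = 0.0474 to 0.136). Agrn, Dmd, Utrn, Itgb8, Adamts20 and Mgp passed in no reduced fit (adjusted p = 0.051 to 0.164). Ltbp2 and Efemp1 passed only in the fits without miR-21 3 or scramble 1, 2 or 3 (adjusted p = 0.0331 to 0.0825). Epyc passed only in the fits without miR-21 3 or scramble 2 (adjusted p = 0.0403 to 0.125). Adamts7 passed only in the fits without miR-21 1 or 3 or scramble 1, 2 or 3 (adjusted p = 0.0177 to 0.05). In miR-34a 3, miR-324 1 and miR-324 4, which also lack a suffix, some of these genes stood with scramble and others with miR-21. Lama2 was 8.45, 7.08 and 7.60, Efemp1 8.28, 7.22 and 8.37 and Ltbp2 6.43, 7.68 and 6.27 there, all below every miR-21 array. Utrn was 13.72, 12.64 and 11.96, Agrn 9.10, 9.25 and 7.97 and Hspg2 13.00, 13.23 and 11.81, above every scramble array, with miR-324 4 the lowest of the 3. With the suffix as a fixed block the difference of Hspg2 was 1.95 (adjusted p = 0.055 in limma). Of all these matrix genes, with the suffix as a random block Col1a2, Col5a2, Lama2, Ltbp2, Efemp1 and Adamts7 still passed (adjusted p = 0.0153 to 0.0386) and Lox, Tnn, Hspg2, Lamc1, Lamb1, Agrn, Dmd, Utrn, Itgb8, Fmod, Prelp, Ogn, Epyc, Adamts20, Mgp and Mmp3 did not (adjusted p = 0.0584 to 0.193). Of 14 fibroblast markers 0 passed in limma (3 higher and 2 lower at an unadjusted p under 0.05), and their median difference was 0.11. Wholly above scramble lay 2 and wholly below 4, against 16.9% and 8.75% of all probes.

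**Figure D4:**
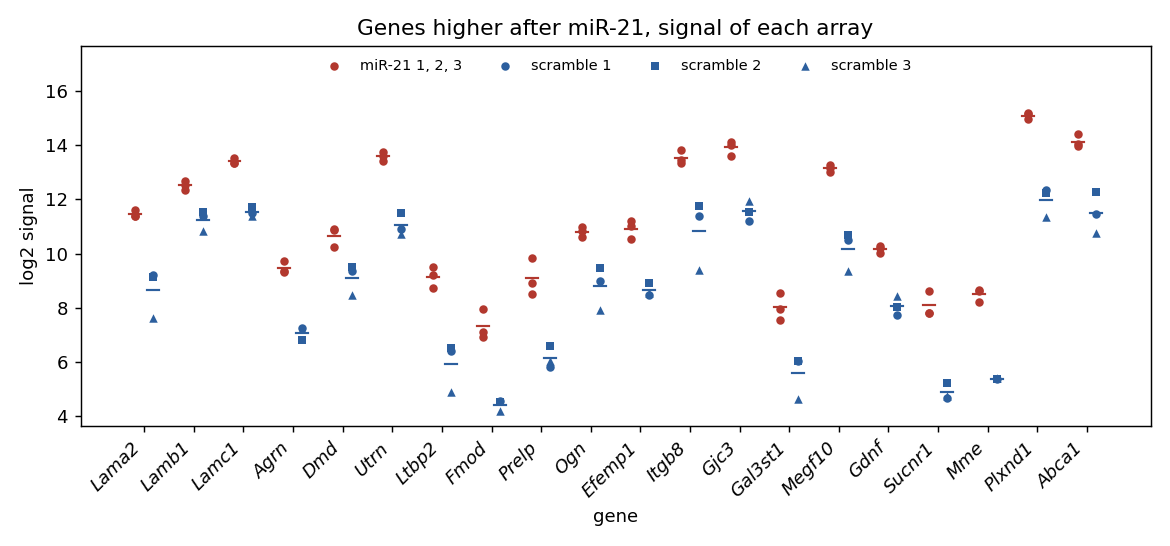
Log2 signal (vertical axis) of each array for 20 genes that were higher after miR-21; red points are miR-21 1 to 3 and blue symbols scramble 1, 2 and 3, with a line at each group mean. In all 20 the miR-21 points lie above the scramble points. Scramble 3 is the lowest in Lama2, Lamb1, Lamc1, Dmd, Utrn, Ltbp2, Fmod, Ogn, Itgb8, Gal3st1, Megf10, Plxnd1 and Abca1. It is the highest scramble array in Gjc3, Gdnf and Mme.

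Of 17 myelin sheath genes 3 rose and 0 fell, against 0.685% and 0.358% of all probes. Wholly above scramble lay 13, against 16.9% of all probes. The list's median difference was 1.64, 1.30 and 1.66 against scramble 1, 2 and 3. With the suffix as a random block 0 of the 17 passed, and as a fixed block 2 rose and the list's median difference was 0.77, against 1.44 without it. The 3 were Pmp2, Mbp and Cldn19. Mbp, the myelin basic protein, stood at 14.22, 14.40 and 14.60 in miR-21 1, 2 and 3, against 10.61, 10.95 and 9.95 in scramble 1, 2 and 3 (difference 3.90 ± 0.82, adjusted p = 0.0457), and at 14.01, 12.94 and 11.26 in miR-34a 3, miR-324 1 and miR-324 4. Cldn19, a claudin of Schwann cells, stood at 9.13, 8.21 and 8.64 in miR-21 1, 2 and 3, against 6.09, 5.72 and 5.52 in scramble 1, 2 and 3 (difference 2.88 ± 0.45, adjusted p = 0.0172). Pmp2 stood at 12.86, 12.68 and 13.05 in miR-21 1, 2 and 3, against 8.85, 8.97 and 4.24 in scramble 1, 2 and 3 (difference 5.51 ± 1.02, adjusted p = 0.0284), with scramble 3 the lowest array. Of 28 regulators of Schwann cell development 1 rose, Gdnf, and 0 fell. Gjc3, a gap junction protein of myelinating glia that was on no list, stood at 13.60, 14.01 and 14.12 in miR-21 1, 2 and 3, against 11.21, 11.54 and 11.94 in scramble 1, 2 and 3 (difference 2.35 ± 0.50, adjusted p = 0.0488). Gal3st1, the enzyme that makes the myelin lipid sulfatide, stood at 8.55, 7.94 and 7.55 in miR-21 1, 2 and 3, against 6.05, 6.03 and 4.65 in scramble 1, 2 and 3 (difference 2.44 ± 0.41, adjusted p = 0.0218). Megf10, an engulfment receptor of glia and muscle progenitors, stood at 13.25, 13.00 and 13.17 in miR-21 1, 2 and 3, against 10.51, 10.70 and 9.34 in scramble 1, 2 and 3 (difference 2.96 ± 0.50, adjusted p = 0.0218). The miR-21 arrays were tight in Gjc3 and Megf10, and scramble 3 was the lowest of the 6 arrays compared in Gal3st1 and Megf10. Gdnf, a neurotrophic factor that Schwann cells release after injury, stood at 10.29, 10.02 and 10.19 in miR-21 1, 2 and 3, against 7.75, 8.02 and 8.45 in scramble 1, 2 and 3 (difference 2.09 ± 0.39, adjusted p = 0.0295). Gldn, a node-of-Ranvier protein of Schwann cells, stood at 14.08, 14.30 and 14.27 in miR-21 1, 2 and 3, against 11.34, 11.83 and 8.61 in scramble 1, 2 and 3, apart but not past the threshold (adjusted p = 0.0776). Of 14 satellite glia markers 0 passed in limma (2 higher and 4 lower at an unadjusted p under 0.05), and Ednrb, the endothelin receptor B, had the smallest p, at 9.26, 9.20 and 9.56 in miR-21 1, 2 and 3, against 12.39, 13.05 and 15.82 in scramble 1, 2 and 3 (adjusted p = 0.067). As single miR-21 or scramble arrays were omitted, Gjc3, Gdnf and Mbp passed in no reduced fit (adjusted p = 0.0534 to 0.157). Gal3st1 and Pmp2 passed only in the fits without scramble 1, 2 or 3 (adjusted p = 0.0245 to 0.125). Megf10 passed only in the fits without scramble 2 (adjusted p = 0.0474 to 0.11). Cldn19 passed only in the fits without scramble 1 (adjusted p = 0.043 to 0.089). When the suffix was a random block Gjc3, Gal3st1, Megf10, Gdnf, Pmp2, Mbp and Cldn19 did not pass (adjusted p = 0.0584 to 0.194). In miR-34a 3, miR-324 1 and miR-324 4 Gjc3 stood at 13.56, 12.92 and 12.36, Megf10 at 12.37, 11.74 and 10.55 and Gal3st1 at 6.61, 4.23 and 4.74, so Gjc3 was higher there than in any scramble array, Megf10 was so in miR-34a 3 and miR-324 1 only, and Gal3st1 was below every miR-21 array in all 3.

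Some single genes of the cytoskeleton and nuclear lamina, chosen after their values were seen apart from Hspb7 and Cspg4, were higher. Flna, the actin crosslinker filamin A, stood at 17.42, 16.96 and 17.23 in miR-21 1, 2 and 3, against 15.07, 15.40 and 13.79 in scramble 1, 2 and 3 (difference 2.45 ± 0.50, adjusted p = 0.0416), among the brightest genes that passed. Lmna, the nuclear lamin A, stood at 14.86, 14.63 and 15.02 in miR-21 1, 2 and 3, against 12.53, 12.99 and 13.18 in scramble 1, 2 and 3 (difference 1.94 ± 0.38, adjusted p = 0.0342). Map4, a microtubule-associated protein of non-neuronal cells, stood at 15.54, 15.38 and 15.76 in miR-21 1, 2 and 3, against 13.92, 14.32 and 13.95 in scramble 1, 2 and 3 (difference 1.50 ± 0.20, adjusted p = 0.00969). In these 3 genes no scramble array reached a miR-21 array. Tead1, the transcription factor through which YAP acts, Csrp2, an actin-bound protein of smooth muscle, Flnc, a muscle filamin, and Hspb7, a muscle heat shock protein, differed by 2.12, 2.53, 1.80 and 1.74 (adjusted p = 0.0218, 0.0277, 0.0251 and 0.0283). Of 22 mural cell and contractile genes 1 rose and 0 fell, and 12 lay wholly above scramble. Over all probes 0.685% rose and 16.9% lay wholly above. The 1 was Cspg4, the proteoglycan NG2 of pericytes, at 10.50, 9.55 and 10.36 in miR-21 1, 2 and 3, against 7.92, 7.96 and 6.57 in scramble 1, 2 and 3 (difference 2.65 ± 0.50, adjusted p = 0.0295). Tagln, the smooth muscle protein transgelin, had the widest gap to scramble 3, at 16.62, 16.61 and 16.52 in miR-21 1, 2 and 3, against 12.94, 12.93 and 6.71 in scramble 1, 2 and 3, and did not pass (adjusted p = 0.149). For the cytoskeletal genes with single arrays removed, Flna, Lmna, Csrp2 and Cspg4 passed in no reduced fit (adjusted p = 0.055 to 0.164). Map4 passed only in the fits without miR-21 2 or 3 or scramble 1, 2 or 3 (adjusted p = 0.03 to 0.0576). Tead1 passed only in the fits without scramble 2 (adjusted p = 0.0474 to 0.0871). Flnc and Hspb7 passed only in the fits without scramble 1 (adjusted p = 0.0412 to 0.122). With a random block for the suffix Map4 still passed (adjusted p = 0.0262) and Flna, Lmna, Tead1, Csrp2, Flnc, Hspb7 and Cspg4 did not (adjusted p = 0.0738 to 0.13).

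Lipid genes moved in both directions. Of 21 genes of sterol synthesis and uptake 3 fell and 0 rose, and 16 lay wholly below scramble. Over all probes 0.358% fell and 8.75% lay wholly below. The list's median difference was −1.47, −1.81 and −0.89 against scramble 1, 2 and 3. With the suffix as a block 0 of the 21 passed, fixed or random, and with the fixed block the median difference was 0.03, against −1.35 without it. Insig1, which holds back sterol synthesis, stood at 10.18, 9.85 and 9.97 in miR-21 1, 2 and 3, against 11.75, 11.98 and 11.83 in scramble 1, 2 and 3 (difference −1.85 ± 0.28, adjusted p = 0.0159). Msmo1, a methylsterol oxidase, and Idi1, an isomerase of isoprenoid synthesis, differed by −1.89 ± 0.36 and −2.07 ± 0.43 (adjusted p = 0.0323 and 0.0436). Plin2, the coat protein of lipid droplets, stood at 10.48, 9.14 and 10.34 in miR-21 1, 2 and 3, against 11.68, 11.64 and 11.87 in scramble 1, 2 and 3 (difference −1.74 ± 0.30, adjusted p = 0.0229). Pltp, the phospholipid transfer protein, stood at 5.06, 4.97 and 5.23 in miR-21 1, 2 and 3, against 7.30, 7.17 and 6.47 in scramble 1, 2 and 3 (difference −1.89 ± 0.25, adjusted p = 0.00969). Abca1, the exporter of cholesterol to lipoproteins, stood at 14.03, 13.95 and 14.40 in miR-21 1, 2 and 3, against 11.45, 12.27 and 10.77 in scramble 1, 2 and 3 (difference 2.63 ± 0.48, adjusted p = 0.0283). Thus of 16 genes of sterol efflux 1 rose and 1 fell, and the groups did not overlap in either. In miR-34a 3, miR-324 1 and miR-324 4 Abca1 stood at 13.58, 12.47 and 11.19 and Pltp at 7.65, 6.63 and 6.65. Apoe, the apolipoprotein of the same list, stood at 9.79, 10.12 and 10.97 in miR-21 1, 2 and 3, against 14.31, 14.15 and 9.46 in scramble 1, 2 and 3, with scramble 3 beside the miR-21 arrays (adjusted p = 0.443). Of 26 genes of fatty acid synthesis 0 passed in limma, with 4 higher and 2 lower at an unadjusted p under 0.05. The sterol regulatory element letters TCACNCCAC were found in 1.43% of 15691 promoters, in 1 of 17 promoters of the sterol list and in 0 of 3 of its genes that fell, which says only that these letters are not in this window. In the 6 reduced fits, Insig1 passed only in the fits without scramble 1, 2 or 3 (adjusted p = 0.0442 to 0.0667). Msmo1 passed only in the fits without scramble 3 (adjusted p = 0.0442 to 0.127). Idi1 passed in no reduced fit (adjusted p = 0.0688 to 0.152). Plin2 passed only in the fits without miR-21 2 (adjusted p = 0.046 to 0.0705). Pltp passed only in the fits without miR-21 2 or 3 or scramble 1, 2 or 3 (adjusted p = 0.00657 to 0.0576). Abca1 passed only in the fits without scramble 2 (adjusted p = 0.0474 to 0.123). For these genes the random suffix block had this result: Pltp still passed (adjusted p = 0.0262) and Insig1, Msmo1, Idi1, Plin2 and Abca1 did not (adjusted p = 0.0594 to 0.18).

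Of 25 pan-neuronal genes 0 passed in limma, and 5 were lower at an unadjusted p under 0.05, against 6.08% of all probes. Wholly below scramble lay 14 and wholly above 0, against 8.75% and 16.9% of all probes. The median difference was −1.23, −1.54 and −0.56 against scramble 1, 2 and 3. This direction was not kept with the suffix as a fixed block, a fit that takes the suffix step from the miR-34a and miR-324 arrays. In it 4 of the 25 were higher and 0 lower, with a median of 0.94. With the 6 arrays alone 10 of the 25 fell. Of 44 genes of vesicle release 0 passed, with 9 at an unadjusted p under 0.05 (median −0.60), and 0 of 74 voltage-gated channels and 0 of 93 ligand-gated receptors passed, with 8 and 14 at that threshold (medians −0.27 and −0.00). These 3 shares are to be read against 16.6% of all probes. By direction 1, 0 and 8 genes were higher and 8, 8 and 6 lower, against 10.6% and 6.08% of all probes. With the fixed suffix block the 3 medians were 0.64, 0.31 and 0.24, with 3, 8 and 5 genes higher and 0, 0 and 1 lower. Of 32 neuropeptide genes 0 passed, with 0 higher and 6 lower at an unadjusted p under 0.05. Adcyap1, the peptide PACAP, stood at 6.50, 6.54 and 7.07 in miR-21 1, 2 and 3, against 9.67, 9.89 and 9.82 in scramble 1, 2 and 3 (adjusted p = 0.117). Of 32 injury and regeneration genes 1 rose and 2 fell, against 0.685% and 0.358% of all probes. Wholly below scramble lay 17, against 8.75% of all probes. With the fixed suffix block 0 passed and the median was 0.14, against −1.02 without it. Lif, a cytokine of injured nerve, rose, at 13.56, 13.10 and 13.47 in miR-21 1, 2 and 3, against 11.92, 11.86 and 11.70 in scramble 1, 2 and 3 (difference 1.55 ± 0.32, adjusted p = 0.0441). Hspb1, a small heat shock protein, stood at 10.43, 10.59 and 11.02 in miR-21 1, 2 and 3, against 12.08, 12.63 and 12.77 in scramble 1, 2 and 3 (difference −1.81 ± 0.28, adjusted p = 0.0159), and Gadd45a, a stress-induced protein, differed by −1.44 ± 0.30 (adjusted p = 0.0436). On leaving out single arrays, Lif passed in no reduced fit (adjusted p = 0.094 to 0.171). Hspb1 passed only in the fits without miR-21 3 or scramble 1, 2 or 3 (adjusted p = 0.0385 to 0.0864). Gadd45a passed only in the fits without scramble 1 (adjusted p = 0.0489 to 0.175). The random suffix block gave the following: Lif, Hspb1 and Gadd45a did not pass (adjusted p = 0.0584 to 0.174). Several of this list differed widely without passing. Il11, a cytokine, stood at 7.73, 7.12 and 7.69 in miR-21 1, 2 and 3, against 12.14, 12.43 and 12.70 in scramble 1, 2 and 3 (adjusted p = 0.197), and Bdnf, the brain-derived neurotrophic factor, at 7.29, 6.61 and 7.92 in miR-21 1, 2 and 3, against 10.64, 11.14 and 10.91 in scramble 1, 2 and 3 (adjusted p = 0.179). Vgf, a secreted neuronal precursor protein, stood at 9.28, 9.04 and 9.85 in miR-21 1, 2 and 3, against 11.84, 12.74 and 12.84 in scramble 1, 2 and 3 (adjusted p = 0.116). The groups did not overlap in any of these 4 genes, which passed with the 6 arrays alone (adjusted p = 0.000739, 0.00024, 0.00154 and 0.0023). In miR-34a 3, miR-324 1 and miR-324 4, without a suffix, Bdnf stood at 6.16, 6.28 and 10.20 and Il11 at 4.89, 6.20 and 11.83, so both were low in miR-34a 3 and miR-324 1 too.

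Genes of adhesion, receptors and signalling stood among the other rises. Cdh6, a cadherin that was on no list, stood at 12.85, 12.50 and 12.88 in miR-21 1, 2 and 3, against 9.69, 9.65 and 6.59 in scramble 1, 2 and 3 (difference 4.10 ± 0.71, adjusted p = 0.0229), with scramble 3 the lowest array. Sucnr1, the receptor for the metabolite succinate, stood at 7.82, 8.62 and 7.82 in miR-21 1, 2 and 3, against 4.69, 5.22 and 4.75 in scramble 1, 2 and 3 (difference 3.20 ± 0.40, adjusted p = 0.00969). It was low in all scramble arrays. Mme, the peptidase neprilysin, stood at 8.22, 8.62 and 8.67 in miR-21 1, 2 and 3, against 5.36, 5.39 and 5.41 in scramble 1, 2 and 3 (difference 3.12 ± 0.64, adjusted p = 0.042). Plxnd1, a semaphorin receptor, stood at 14.95, 15.14 and 15.17 in miR-21 1, 2 and 3, against 12.36, 12.23 and 11.36 in scramble 1, 2 and 3 (difference 3.10 ± 0.48, adjusted p = 0.017), and with Plxnb3 (1.16 ± 0.22, adjusted p = 0.0312) made up the 2 of 66 axon guidance genes that rose; 0 fell. Fat1, a giant protocadherin, stood at 13.96, 13.70 and 14.05 in miR-21 1, 2 and 3, against 11.79, 11.89 and 10.36 in scramble 1, 2 and 3 (difference 2.56 ± 0.34, adjusted p = 0.00969). No scramble array reached a miR-21 array in any of these 5, and scramble 3 was lowest in Plxnd1 and Fat1. F3, the coagulation starter tissue factor, differed by 2.41 ± 0.41, and Lrig1, a brake on receptor tyrosine kinases, by 1.92 ± 0.32 (adjusted p = 0.0226 and 0.0203). Frzb, a secreted antagonist of Wnt that was on no list, differed by 2.54 (adjusted p = 0.0474), Nog, the antagonist of bone morphogenetic proteins, by 1.47 (adjusted p = 0.028), and Igf1r, the receptor of insulin-like growth factor, by 1.40 (adjusted p = 0.029). Sh3bp5, Sipa1l1 and Mfap3l, among the 25 largest rises, differed by 3.08, 2.74 and 2.61 (adjusted p = 0.0435, 0.028 and 0.0203). Under removal of single arrays, Cdh6, Plxnd1 and F3 passed only in the fits without scramble 1, 2 or 3 (adjusted p = 0.0245 to 0.115). Sucnr1 passed in all 6 (adjusted p = 0.0245 to 0.046). Mme, Plxnb3, Frzb and Sh3bp5 passed in no reduced fit (adjusted p = 0.0625 to 0.164). Fat1 passed only in the fits without miR-21 2 or 3 or scramble 1, 2 or 3 (adjusted p = 0.00657 to 0.0576). Lrig1, Nog and Igf1r passed only in the fits without scramble 2 (adjusted p = 0.037 to 0.125). Sipa1l1 passed only in the fits without scramble 1 (adjusted p = 0.0412 to 0.125). Mfap3l passed only in the fits without scramble 1 or 2 (adjusted p = 0.0489 to 0.0907). After a random block for the suffix Sucnr1, Fat1, F3 and Nog still passed (adjusted p = 0.0203 to 0.0474) and Cdh6, Mme, Plxnd1, Plxnb3, Lrig1, Frzb, Igf1r, Sh3bp5, Sipa1l1 and Mfap3l did not (adjusted p = 0.052 to 0.18). Mme and Sh3bp5 stood at 8.70, 7.05 and 6.04 and at 14.37, 13.31 and 12.07 in miR-34a 3, miR-324 1 and miR-324 4, while Sucnr1 stood at 6.58, 5.72 and 5.28. Frzb stood at 10.57, 8.83 and 9.00 there, above every scramble array, and miR-34a 3 exceeded every miR-21 array.

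Housekeeping and proliferation lists gave no calls. Of 63 cytosolic ribosomal proteins 0 passed in limma (median 0.31), and 14 were higher and 1 lower at an unadjusted p under 0.05 (10.6% and 6.08% of all probes). Wholly above scramble lay 22 and wholly below 1 (16.9% and 8.75% of all probes). Of 81 subunits of oxidative phosphorylation, 26 glycolysis and hypoxia genes, 29 genes of the unfolded protein response and 39 genes of replication and mitosis 0 passed, with 9, 6, 7 and 8 at that threshold, against 16.6% of all probes. Of those, 5, 1, 3 and 8 were higher and 4, 5, 4 and 0 lower, against 10.6% and 6.08% of all probes. The proliferation list depended on the scramble array: its median difference was 0.30, 0.11 and 2.30 against scramble 1, 2 and 3. Mki67, a protein of dividing cells, stood at 12.53, 12.28 and 12.63 in miR-21 1, 2 and 3, against 10.93, 10.49 and 7.02 in scramble 1, 2 and 3 (adjusted p = 0.205). Of the 6 arrays compared, scramble 3 was far below the others. Of 48 genes reported elsewhere as miR-21 targets 2 rose (4.17%), Jag1 and Satb1, and 0 fell, against 0.685% and 0.358% of all probes. With the suffix as a random block 0 passed. Wholly above scramble lay 14 and wholly below 4, against 16.9% and 8.75% of all probes. At an unadjusted p under 0.05, 9 were higher and 3 lower, against 10.6% and 6.08% of all probes. The list's median difference was 0.24 against 0.13 over all probes. Of 22 genes of miRNA biogenesis and action 0 passed, with 6 higher at that threshold. Ago1, an Argonaute protein, had the smallest p (1.43 ± 0.39, adjusted p = 0.0974).

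**Figure D5:**
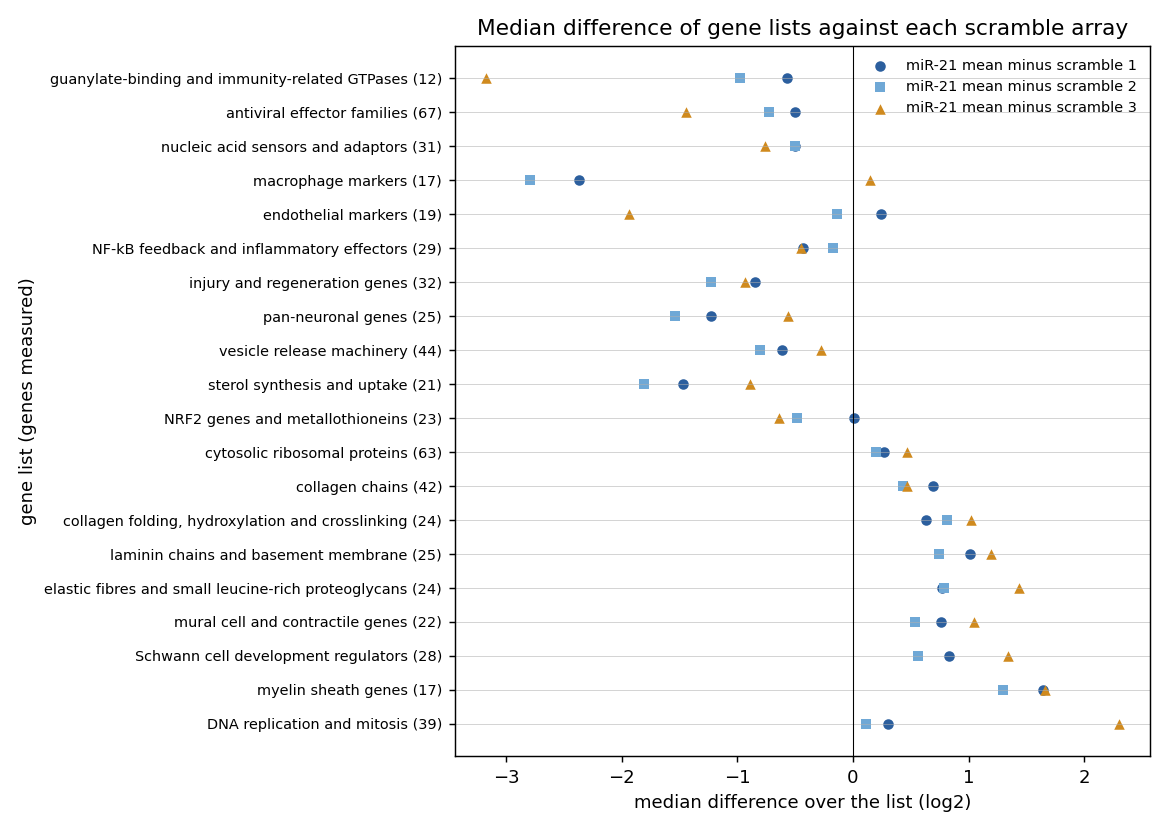
Median over each gene list (number of genes measured in brackets) of the miR-21 mean minus scramble 1, scramble 2 or scramble 3 (horizontal axis, log2). Immune GTPases, macrophage and endothelial markers and proliferation genes separate scramble 3 from scramble 1 and 2, while matrix, myelin, sterol and pan-neuronal lists have 1 sign against all 3 scramble arrays; with the suffix as a fixed block the pan-neuronal median is 0.94 and the sterol median 0.03.

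The arrays of other groups were set against the midpoint between the miR-21 and scramble means for the same genes. Of the 134 genes that were higher after miR-21, miR-34a 3 and miR-324 1 lay on the miR-21 side in 51 and 43, miR-324 2 and 4 in 16 and 17, and miR-34a 1 and 2 in 3 each. Of the 70 that were lower, miR-34a 3 and miR-324 1 lay there in 20 and 17, miR-324 2 and 4 in 9 and 7, and miR-34a 1 and 2 in 1 and 0. With the suffix fitted as a fixed block all 134 and all 70 kept their sign. That fit takes the difference between no suffix and a suffix from the miR-34a and miR-324 arrays alone. Fitted instead as a random block, the suffix left 34 of the 204, 16 higher and 18 lower, and added 0.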

How the data were processed

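Deposited values were log2 signals of Clariom S Mouse arrays (12 arrays, biotin-labelled cDNA from total RNA), made with RMA in Transcriptome Analysis Console 4.0, per the submitters' processing notes. RMA subtracts background and gives all arrays 1 distribution of signals, which hides changes in total signal, and differences near the floor come out too small. Array medians were 5.91 to 6.06, and the number of arrays limits precision. The platform annotation gave 1 gene symbol to 19572 of 22206 probes, more to 0, and 2634 had none here. Every gene identifier was found in RefSeq (GRCm38.p6). The brightest probe stood for a symbol in list counts (19505 symbols, 55 with several probes). No array repeated another.

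Group means of the 12 arrays were fitted with limma 3.58.1 in R 4.3.3 (lmFit, eBayes, two-sided, 8 residual degrees of freedom), and p-values were Benjamini-Hochberg adjusted over 19572 probes at a threshold of 0.05. The fit was tested on simulated data. The genes and the 51 lists were chosen with earlier results of these data known. Genes named were drawn from the 25 largest rises and falls with groups that do not overlap, from up to 6 members past the threshold of each list, and from the 2 with the smallest p of the other lists, some of which are not described. Gjc3, Gal3st1, Utrn, Dmd, Flna, Flnc, Lmna, Map4, Tead1, Csrp2, Lrig1, F3, Irak3, Nfkbid, Pim1, Prdm1, Pde4b, Plin2, Il6, Il11, Lcn2, Bdnf, Vgf, Irf7, Usp18, Gldn, Tagln, Mki67, Apoe, Fcgr3, Uty, Cga, Gh, Gna13 and Clec2d were named after their values were seen. Whether label numbers pair the samples could not be decided. Deviations from the group means correlated at 0.07, −0.07 and −0.21 for arrays with the same number, and at −0.19 to 0.21 for the others. With so few arrays in a group such values can neither show nor exclude pairing. Promoters and miRNAs came from RefSeq tables; seed sites in messages were not analysed here. The alternatives tried are in the closing section.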

Additional observations from a re-analysis of the deposited data

How the results depend on the processing

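The 204 calls (134 higher, 70 lower) depended on which arrays estimated the spread. With only the 6 arrays compared 906 genes passed (504 higher, 402 lower), without miR-34a 3 and miR-324 1, an alternative chosen after seeing the data, 1618 (904 and 714), with array weights 2390 (1359 and 1031), with probes brighter than the median 310 (210 and 100) of 10043, and at an unadjusted p under 0.05 with at least 2-fold 1419 (751 and 668). Without 1 replicate the count was 11 to 81 (3 to 57 higher, 8 to 42 lower), lowest without miR-21 1 and highest without scramble 2. Against scramble 3 alone 269 passed, 86 of them among the 204. The label number as a replicate block left 2 (1 and 1), and whether these numbers pair the samples could not be decided. The label suffix as a fixed block gave 684 (411 and 273), 78 of them among the 204, and as a random block 34 (16 and 18). Quantile normalization again, median centring and a variance trend gave 260, 187 and 196; the first shifted the all-probe median to 0.03, and the split was 160 higher and 100 lower. The cause was not tested for any of these counts.

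No named gene that passed changed sign. Of named genes that did not pass, the fixed suffix block turned H2-DMa to 0.26, Cacnb1 to 0.21, Cacnb4 to 0.57, Slc17a6 to 0.04, Pfkfb3 to 0.22, Il11 to 0.46, Bdnf to 0.19, Apoe to 1.89 and Uty to −0.46. Apoe was 0.83 against scramble 3 alone. Without single replicates Cga ranged from −3.92 to 0.17 and Gh from −3.24 to 0.05, both positive only without scramble 3. The median difference changed sign in 15 of 51 gene lists with the fixed suffix block and in 9 with the random one, and lists with a call numbered 41 and 11, against 30 without a block. The number of arrays, and signal near the floor, limit what can be told apart.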
